A study of Mus musculus with 2 samples.

Results

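Cldn1, Cldn4, Ocln, F11r and Tjp1 are 5 tight junction genes among the 19465 genes counted in spatial transcriptomics of IMQ-treated mouse skin. They were found by their symbols in the gene table, and all 5 were present. Spots of tissue were read from 1 section of an S1pr2fl/fl mouse and 1 section of an S1pr2fl/fl K14-Cre mouse. Both mice carried floxed S1pr2 alleles, were depilated on the back, and were given imiquimod (IMQ), a Toll-like receptor agonist in a cream of 5%, at 62.5 mg each day over 7 days starting at the age of 8 weeks. Only the S1pr2fl/fl K14-Cre mouse had Cre recombinase under the keratin 14 promoter, which is active in basal keratinocytes and in hair follicles and sebaceous glands. No untreated section was analysed here, so the levels are those of IMQ-treated skin. With 1 section a genotype, the difference between mice cannot be told apart from the difference between genotypes, and no test between the sections was made.

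Tight junctions are belts near the top of epithelial cells that close the space between neighbours. In the epidermis they lie in the granular layer, beneath the cornified layer, and limit the passage of water and small molecules. Claudins form the strands, occludin and junctional adhesion molecules sit beside them in the membrane, and scaffold proteins of the zonula occludens family tie them to actin.

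A spot is a small circle of the slide that can hold several cells of different types, and a unique molecular identifier (UMI) counts 1 captured molecule. The S1pr2fl/fl section had 5315351 UMIs over 1282 spots, with a median of 3542.5 a spot, and the S1pr2fl/fl K14-Cre section had 2845826 over 981 spots, with a median of 2319. Spots were clustered without the listed tight junction, adherens junction and desmosome genes. The clusters in which at least 50 percent of 15 keratinocyte markers stood at least 2-fold above the rest were taken as the keratinocyte-marker region. In S1pr2fl/fl these were a cluster led by Dhrs9 and Gm11992, with 12 of 15 markers, and one led by Kctd4 and Arg1, with 9 of 15, together 189 spots and 899475 UMIs. The S1pr2fl/fl K14-Cre region was 1 cluster led by Sprr2i and Pglyrp4, with 14 of 15 markers, 190 spots and 517542 UMIs. Both regions ran along the skin surface, and the spots nearest the surface belonged to them in 154 of 203 and 159 of 200 cases. The content of the regions differed: the summed keratinocyte markers were at 0.496 times the S1pr2fl/fl level in S1pr2fl/fl K14-Cre, differentiated markers at 0.321 times, basal markers at 0.838 times, dermal fibroblast markers at 2.65 times, endothelial markers at 2.94 times and skeletal muscle markers at 3.18 times. The part of these differences in the results below was not tested. S1pr2 itself had 11 UMIs in the S1pr2fl/fl region and 5 in the S1pr2fl/fl K14-Cre region, too few to check the genotype.

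**Figure D1:**
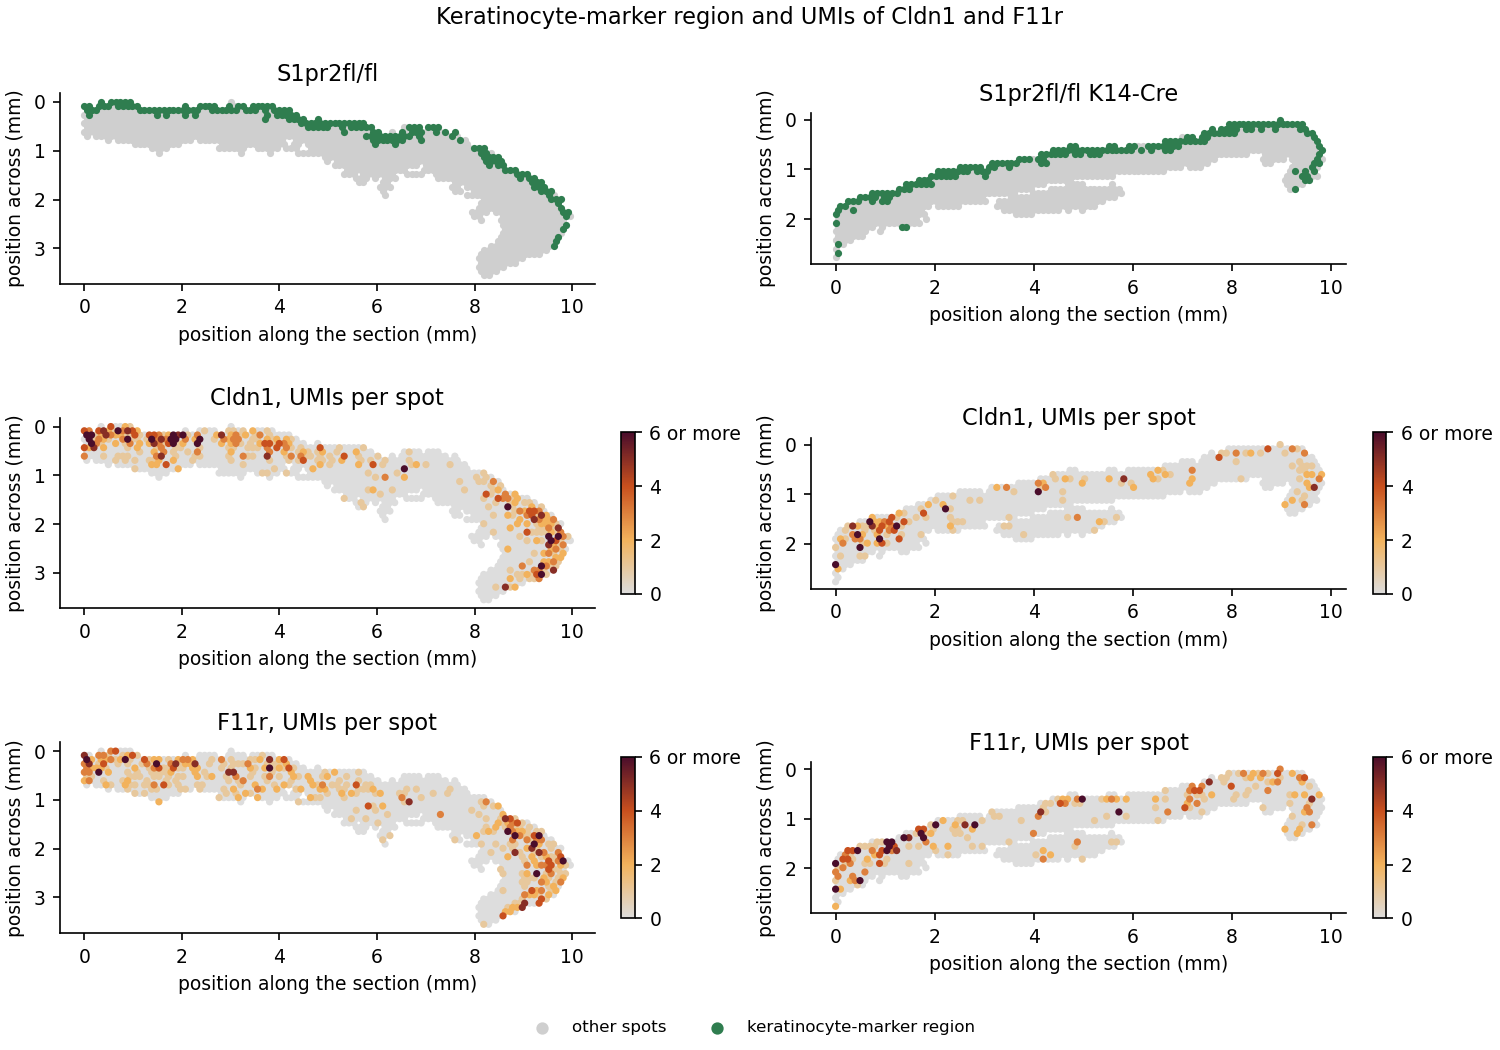
Spots of the S1pr2fl/fl section (left) and the S1pr2fl/fl K14-Cre section (right), by position in mm with the skin surface at the top. The upper row marks the keratinocyte-marker region (189 and 190 spots), and the lower rows colour each spot by its UMIs of Cldn1 and F11r, with 6 or more in the darkest shade. Spots with many F11r UMIs in S1pr2fl/fl K14-Cre lie mostly along the surface. The colours are UMIs not scaled to the total of a spot. Cut into stretches of 47 or 48 spots, the S1pr2fl/fl region had 80, 30, 6 and 66 F11r UMIs from end to end. All UMIs of these stretches were 380818, 164570, 62714 and 291373. F11r UMIs of the S1pr2fl/fl K14-Cre region were 128, 40, 35 and 38, with no excess at the far end. All UMIs of those stretches were 227278, 67129, 91672 and 131463, and scaled to them F11r stood at 563, 596, 382 and 289 CPM.

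Whether a count could be read was judged against 1226 olfactory, vomeronasal and taste receptor genes, which skin is not known to use in bulk. A gene was called too low to read where it had under 10 UMIs or did not exceed the 95th percentile of those receptor genes, counted over the same spots. That percentile was 3 UMIs in the S1pr2fl/fl region and 11 in the S1pr2fl/fl K14-Cre region, where the receptor genes together took 9763 CPM (UMIs per 1000000 UMIs of the same spots) against 1038 CPM. Summed over the region, over the other spots or over all spots, Ocln alone of the 5 genes was too low to read, and only in S1pr2fl/fl K14-Cre. Ocln, which encodes the tetraspan protein occludin, had 12 UMIs in the S1pr2fl/fl region and 3 in the S1pr2fl/fl K14-Cre region. Over all spots it had 41 and 15 UMIs, the latter again below the receptor percentile of 34. The 5 genes may differ in how many probes read them, which the sources used here do not give. Their levels are therefore compared between places and not ranked against one another. The share of F11r among F11r and Cldn1 UMIs, given below, is likewise compared between places.

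Cldn1 encodes claudin-1, the strand protein without which mouse epidermis loses water. It had 246 UMIs in the S1pr2fl/fl region, or 273 CPM (240.4 to 309.9, exact Poisson 95% interval, as for each level here), and 125 in the S1pr2fl/fl K14-Cre region, or 242 CPM (201 to 288). The intervals of the 2 sections overlapped. In the other spots Cldn1 stood at 130.4 CPM in S1pr2fl/fl and 85 CPM in S1pr2fl/fl K14-Cre, so the region held 2.1 times (1.8 to 2.44) and 2.84 times (2.25 to 3.57) their level. Cldn4 encodes claudin-4, another strand protein of the upper epidermis. It had 58 UMIs, 64.5 CPM, in the S1pr2fl/fl region and 23 UMIs, 44.4 CPM, in the S1pr2fl/fl K14-Cre region. The region held 1.86 times (1.35 to 2.53) and 3.45 times (1.91 to 6.14) the level of the other spots. In S1pr2fl/fl K14-Cre 9 of the 23 UMIs came from 1 spot, and the highest receptor gene had 62 UMIs in the same spots, so this level rests on few molecules.

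F11r encodes junctional adhesion molecule A, an immunoglobulin-type protein that helps to place the junction. It had 182 UMIs in 77 of the 189 S1pr2fl/fl region spots, or 202 CPM (174 to 234), and 241 UMIs in 83 of the 190 S1pr2fl/fl K14-Cre region spots, or 466 CPM (409 to 528). These intervals lay apart. The other spots had 130.0 CPM in S1pr2fl/fl and 100.1 CPM in S1pr2fl/fl K14-Cre, the reverse order. The region thus held 1.56 times (1.31 to 1.84) the level of the other spots in S1pr2fl/fl and 4.65 times (3.87 to 5.6) in S1pr2fl/fl K14-Cre. Tjp1 encodes ZO-1, the scaffold under the strands. It had 124 UMIs, 138 CPM (115 to 164), in the S1pr2fl/fl region and 88 UMIs, 170.0 CPM (136 to 209), in the S1pr2fl/fl K14-Cre region, with overlapping intervals. Its region held 1.87 times (1.51 to 2.31) and 2.12 times (1.62 to 2.74) the level of the other spots. For Ocln the same ratio in S1pr2fl/fl was 2.03, with an interval from 0.944 to 4.1 that did not exclude equality. The summed keratinocyte markers of the region stood at 3.25 times the other spots in S1pr2fl/fl and 7.51 times in S1pr2fl/fl K14-Cre. The other spots held 45895 and 9832 CPM of these markers. The part of this contrast in the ratios of the 5 genes was not tested.

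All these intervals cover counting error alone, within 1 section. In tissue spots, fewer cells of a type and less RNA in each cell cannot be told apart. At least 2-fold higher levels in the region were found for 2 of the 5 genes in S1pr2fl/fl (Cldn1 and Ocln), where the share among all 12322 genes that reached 30 UMIs was 4.63 percent. They were found in S1pr2fl/fl K14-Cre for 4 of the 4 genes that reached 30 UMIs (F11r, Cldn4, Tjp1 and Cldn1), against 14.2 percent of 12851 genes. The median log2 ratio of the 5 genes was 0.91 in S1pr2fl/fl, where the median of all genes was -0.78, and that of the 4 genes was 1.65 in S1pr2fl/fl K14-Cre, where it was -0.07. The excess of Tjp1 in S1pr2fl/fl was smaller with each spot thinned to 1000 UMIs and shallower spots left out: 8.18 percent of region spots (4.43 to 13.6, exact binomial 95% interval) and 7.57 percent of other spots (5.85 to 9.6) had a Tjp1 UMI, and the log2 ratio of thinned levels, from 15 UMIs in the region, was 0.10 in place of 0.91.

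**Figure D2:**
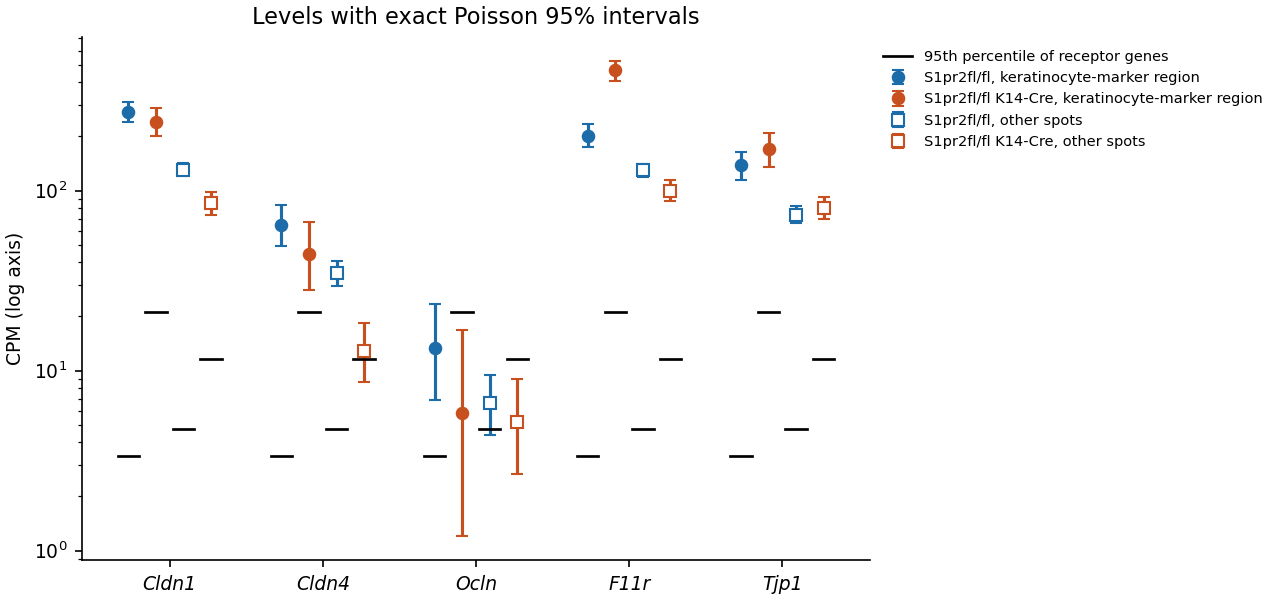
Level of each gene in CPM (log axis) in the keratinocyte-marker region (filled circles) and the other spots (open squares) of both sections, with exact Poisson 95% intervals for counting error. Black bars give the 95th percentile among 1226 receptor genes over the same spots; Ocln lies below its bar in both parts of the S1pr2fl/fl K14-Cre section, and F11r in the S1pr2fl/fl K14-Cre region, at 466 CPM, stands above its level in the other spots of that section, at 100.1.

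Promoter sequences are shown for F11r, the gene whose region level in CPM differed between the sections beyond counting error, and for both claudins, beside which it was read. They are the 250 bases before the annotated start, from RefSeq on GRCm38.p6, 5′ to 3′ on the strand of the gene, with matches to the AP-1 motif TGANTCA in capitals. F11r lies on chromosome 1 and the window is chr1:171437311-171437560 (plus strand), Cldn1 on chromosome 16 with chr16:26371840-26372089 (minus strand), and Cldn4 on chromosome 5 with chr5:134946935-134947184 (minus strand).
F11r: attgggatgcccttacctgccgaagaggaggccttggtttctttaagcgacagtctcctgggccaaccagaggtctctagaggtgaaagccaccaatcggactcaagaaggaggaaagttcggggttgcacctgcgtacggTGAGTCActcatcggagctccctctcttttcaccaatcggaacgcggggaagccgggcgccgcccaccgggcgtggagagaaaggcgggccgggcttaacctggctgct
Cldn1: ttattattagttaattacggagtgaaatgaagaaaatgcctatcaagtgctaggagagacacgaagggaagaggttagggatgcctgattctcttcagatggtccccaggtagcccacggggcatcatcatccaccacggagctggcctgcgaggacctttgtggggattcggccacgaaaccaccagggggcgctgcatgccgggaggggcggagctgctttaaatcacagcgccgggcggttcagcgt
Cldn4: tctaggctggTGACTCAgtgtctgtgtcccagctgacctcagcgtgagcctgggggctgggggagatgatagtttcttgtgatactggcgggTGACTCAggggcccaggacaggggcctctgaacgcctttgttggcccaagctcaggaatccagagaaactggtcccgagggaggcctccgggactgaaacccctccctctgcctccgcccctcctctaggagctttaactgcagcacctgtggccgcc
AP-1 proteins are bound in many genes that keratinocytes switch on as they differentiate. The F11r window held 1 match, which begins 109 bases before the start, and the Cldn4 window held 2, which begin 240 and 158 bases before it. None was found in the windows of Cldn1, Tjp1 or Ocln. Over all 32851 promoter windows of the same length 6.75 percent held this motif, whose reverse complement has the same letters. The Grainyhead motif AACNGGTT was in none of the windows of the 5 genes and in 1.79 percent of all. The Tjp1 window and the second Ocln window lie before starts inside the annotated gene, so the outer end of Tjp1 was not scanned. A match is a run of letters and not a bound site, and no binding was measured.

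Over skin depth, spots were ordered inward from the outermost spot of each array column, in steps of about 173 μm, with the fifth layer taking all deeper spots. Levels of Cldn1, F11r and Tjp1 were higher in the outermost layer than in the fourth layer in both sections, beyond counting error, and so was Cldn4 in S1pr2fl/fl. In S1pr2fl/fl, Cldn1 stood at 267, 223, 139.7, 80.6 and 82.9 CPM from the first layer to the fifth. In S1pr2fl/fl K14-Cre it stood at 189.8, 204, 54.5, 83.3 and 44.9 CPM. The first and second layers did not differ beyond their counting error in S1pr2fl/fl K14-Cre (log2 ratio -0.10, -0.50 to 0.29), and the drop came between the second and the third layer (1.90, 1.33 to 2.50). In S1pr2fl/fl the fall was spread out, with log2 ratios of 0.67 (0.37 to 0.99) for the second layer over the third and 0.79 (0.36 to 1.24) for the third over the fourth. The summed keratinocyte markers also changed with depth. From the first layer to the fifth they stood at 142480.2, 82261, 44809, 27693 and 31496 CPM in S1pr2fl/fl. In S1pr2fl/fl K14-Cre they stood at 72311, 26557, 5175, 3659 and 4014 CPM. The part of this difference in the depth patterns of the 5 genes, and in their differences between sections at a given layer, was not tested.

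F11r fell from 419.5 CPM in the first layer of S1pr2fl/fl K14-Cre to 211, 82.6, 71.9 and 69.9 CPM. Its log2 ratio of the first layer over the fourth was 2.54 (2.04 to 3.08). In S1pr2fl/fl F11r stood at 199, 158, 142, 111 and 111 CPM, a log2 ratio of 0.85 (0.48 to 1.22). F11r was thus higher in the outermost layer of S1pr2fl/fl K14-Cre and lower in the third and the fifth. The intervals lay apart in the first layer (366 to 479 against 171 to 230.3 CPM) and, in the other order, in the third layer (61.3 to 109 against 119 to 168 CPM) and the fifth (50.4 to 94.5 against 94.9 to 130.1 CPM). In the second and the fourth layer they overlapped, which does not show that the levels were equal. No interval of the ratio between sections was made for single layers.

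Tjp1 stood at 123, 96.8, 74, 61.4 and 71.1 CPM in S1pr2fl/fl, and at 188, 135, 52.9, 62.5 and 53.3 CPM in S1pr2fl/fl K14-Cre. Neighbouring layers of Tjp1 did not differ beyond counting error at any depth in S1pr2fl/fl, nor from the third layer down in S1pr2fl/fl K14-Cre. Cldn4 stood at 67.1, 55.3, 43.8, 14.4 and 22.3 CPM in S1pr2fl/fl and at 39.9, 22.3, 18.2, 7.57 and 6.66 CPM in S1pr2fl/fl K14-Cre, where the fourth and the fifth layer had 4 UMIs each and were too low to read (receptor percentiles of 7 and 8). Its log2 ratio of the first over the fourth layer was 2.22 (1.31 to 3.24) in S1pr2fl/fl. Ocln had between 3 and 17 UMIs a layer in S1pr2fl/fl and between 1 and 4 in S1pr2fl/fl K14-Cre. The 2 outer layers of S1pr2fl/fl, with 11 and 17 UMIs, were the only layers of either section in which it could be read. The receptor genes also changed with depth, together from 10080.4 CPM in the first layer to 5342 CPM in the fourth in S1pr2fl/fl K14-Cre and from 1154 to 2939 CPM in S1pr2fl/fl. With the mean receptor level taken off, the log2 ratio of the region over the other spots went from 1.79 to 2.31 for Cldn4 in S1pr2fl/fl K14-Cre and from 2.22 to 2.28 for F11r there, and from 0.90 to 0.98 for Cldn4 and from 1.07 to 1.09 for Cldn1 in S1pr2fl/fl.

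**Figure D3:**
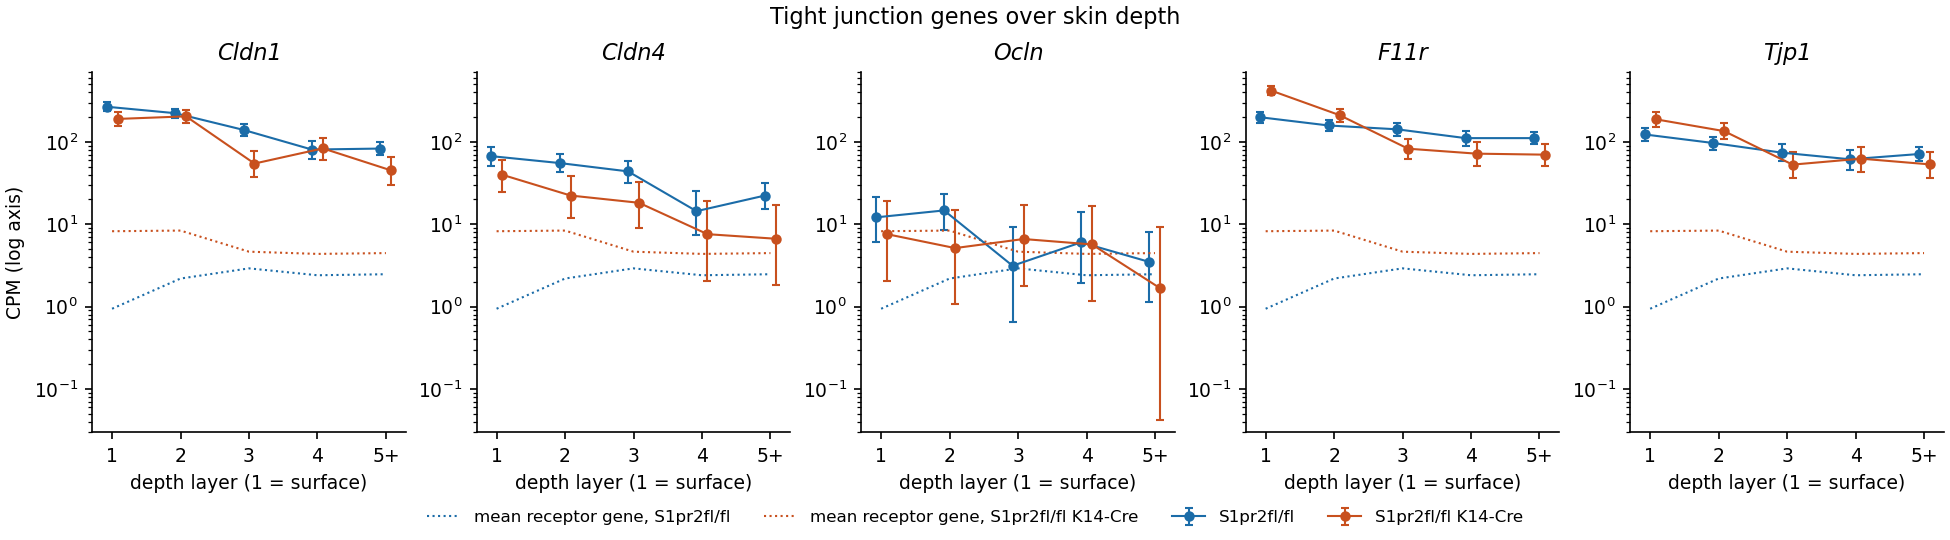
Level of each gene in CPM (log axis) in depth layers 1 (surface) to 5 (all deeper spots) of both sections, with exact Poisson 95% intervals for counting error; dotted lines are the mean level of a receptor gene. F11r of S1pr2fl/fl K14-Cre drops from 419.5 to 82.6 CPM within the outer layers and crosses the flatter line of S1pr2fl/fl, and Ocln of S1pr2fl/fl K14-Cre stays near the receptor line. Keratinocyte markers, not drawn, stood at 44809 CPM in the third layer of S1pr2fl/fl and 5175 CPM in that of S1pr2fl/fl K14-Cre. Their part in these lines was not tested.

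Outside the keratinocyte-marker region, Cldn1 was also high in the clusters that had Awat1 among their leading genes. A cluster of 250 S1pr2fl/fl spots led by Awat1, a wax synthase gene of sebaceous glands, and Cyp2j12 held 419 Cldn1 UMIs, more than any other S1pr2fl/fl cluster, at 228 CPM (207 to 251). This interval touched that of the Dhrs9-led cluster, 287 CPM (248 to 330.0), and lay within that of the Kctd4-led cluster, 230.0 CPM (170.2 to 304), both in the keratinocyte-marker region. Such an overlap does not show that the levels were equal. In the muscle-gene cluster led by Tnnt1 and Myh2 Cldn1 stood at 43.3 CPM (32.2 to 57.1). The S1pr2fl/fl K14-Cre cluster led by Gm35549 and Rarres1, with Awat1 among its leading genes, had 212 CPM of Cldn1 (168 to 263) where its keratinocyte-marker region had 242 CPM (201 to 288). These clusters also held keratinocyte markers, at 71176 CPM in the Awat1-led and 30668 CPM in the Gm35549-led cluster, with 3 of 7 basal markers at least 2-fold above the rest in each, and their part in the Cldn1 level was not tested. The muscle-gene clusters of S1pr2fl/fl K14-Cre led by Myh2 and by Myoz2 had 31.9 and 25.4 CPM. A further S1pr2fl/fl K14-Cre cluster, led by Fa2h and Tbx1, had 3 of 6 sebaceous gland markers at least 2-fold above the rest. These markers summed to 352 CPM there, against 377 CPM in the Gm35549-led cluster. Its Cldn1 level was 119.8 CPM (81.4 to 170.0), below that of the region, with intervals that lay apart.

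F11r was less uneven over the S1pr2fl/fl clusters, from 68.9 CPM in the muscle-gene cluster led by Tceal7 to 211 CPM in the Dhrs9-led cluster, and the Awat1-led cluster had 161 CPM (144 to 181). In S1pr2fl/fl K14-Cre the Gm35549-led cluster had 209 CPM (166 to 260.4), below the 466 CPM of the region. Tjp1 had 79.1 CPM (66.7 to 93) in the Awat1-led cluster of S1pr2fl/fl, below its region, and 152 CPM (115 to 196) in the Gm35549-led cluster of S1pr2fl/fl K14-Cre, within the interval of its region.

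In CPM, F11r was the 1 gene of the 5 whose level in the keratinocyte-marker region differed between the sections beyond counting error. The log2 ratio of S1pr2fl/fl K14-Cre over S1pr2fl/fl was 1.20 (0.92 to 1.49) for F11r, 0.30 (-0.11 to 0.71) for Tjp1, -0.18 (-0.50 to 0.14) for Cldn1 and -0.54 (-1.30 to 0.18) for Cldn4. For Ocln, at 12 and 3 UMIs, it was -1.20 with an interval from -3.67 to 0.69. Of the 4 genes with at least 30 UMIs over both regions, 1 was at least 2-fold higher and 0 were 2-fold lower, where 23.7 percent of all 6468 genes were that much higher and 12.9 percent that much lower. The ratio of F11r thus lies among those of many other genes. Its value was 0.97 above the median of all genes on the log2 scale, while Cldn1 lay at -0.41, Cldn4 at -0.77 and Tjp1 at 0.07 from it.

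The directions of Tjp1, Cldn1 and Cldn4 changed with the scaling, and those of F11r and of Ocln, too low to read in S1pr2fl/fl K14-Cre, did not. Under the trimmed mean of M values (TMM) all ratios fell by 0.89, which left F11r at 0.31, Tjp1 at -0.59, Cldn1 at -1.07 and Cldn4 at -1.43. The intervals fell with them, so that those of Tjp1, Cldn1 and Cldn4 lay below 0 and that of F11r just above it. Per UMI of the keratinocyte markers, a scale chosen after their difference was seen, all ratios rose by 1.01, to 2.22 for F11r, 1.32 for Tjp1, 0.83 for Cldn1 and 0.48 for Cldn4. The intervals of F11r, Tjp1 and Cldn1 then lay above 0. Which genes differed beyond counting error thus depends on the scaling. A clustering at resolution 0.5 widened the S1pr2fl/fl K14-Cre region to 389 spots and gave 0.73 for F11r. Outside the region the F11r log2 ratio was of the opposite sign, -0.38 (-0.60 to -0.16), and there Cldn4 was at least 2-fold lower in S1pr2fl/fl K14-Cre (-1.43, -2.04 to -0.86), where 6.43 percent of genes were. None of the 5 was 2-fold higher there, where 18.5 percent of genes were. Keratinocyte markers outside the region were at 0.214 times the S1pr2fl/fl level in S1pr2fl/fl K14-Cre, and their part in these values was not tested.

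The difference of F11r was spread along the section. Cut into 4 stretches of 47 or 48 region spots, S1pr2fl/fl had F11r levels of 210.1, 182, 95.7 and 227 CPM from one end to the other. S1pr2fl/fl K14-Cre had 563, 596, 382 and 289 CPM. Each S1pr2fl/fl K14-Cre stretch lay above each S1pr2fl/fl stretch, whereas the ranges of Cldn1 (207 to 349 against 142 to 283 CPM), Cldn4 (31.9 to 102 against 0 to 91.3 CPM) and Tjp1 (129 to 158 against 129 to 209 CPM) overlapped. The S1pr2fl/fl stretch at 95.7 CPM rests on 6 F11r UMIs. Some counting intervals of F11r overlapped, as for the stretches at 289 CPM (205 to 397) and 227 CPM (175 to 288). The separation holds in CPM, and the share of all genes whose ranges lay apart was not counted. In CPM 23.7 percent of 6468 genes were at least 2-fold higher in the S1pr2fl/fl K14-Cre region. The TMM shift of -0.89 on the log2 scale is larger than the step from 227 to 289 CPM, so with it the F11r ranges would overlap. Stretches of 1 section are not replicates of a genotype. With spots thinned to 1000 UMIs, 28.7 percent of S1pr2fl/fl K14-Cre region spots (22 to 36.2, exact binomial 95% interval, n = 167 spots) and 15.7 percent of S1pr2fl/fl region spots (10.4 to 22.3, n = 159 spots) had an F11r UMI. For Cldn1 these shares were 17.4 and 18.2 percent. Unthinned, they were 43.7 and 40.7 percent for F11r and 28.9 and 49.2 percent for Cldn1.

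**Figure D4:**
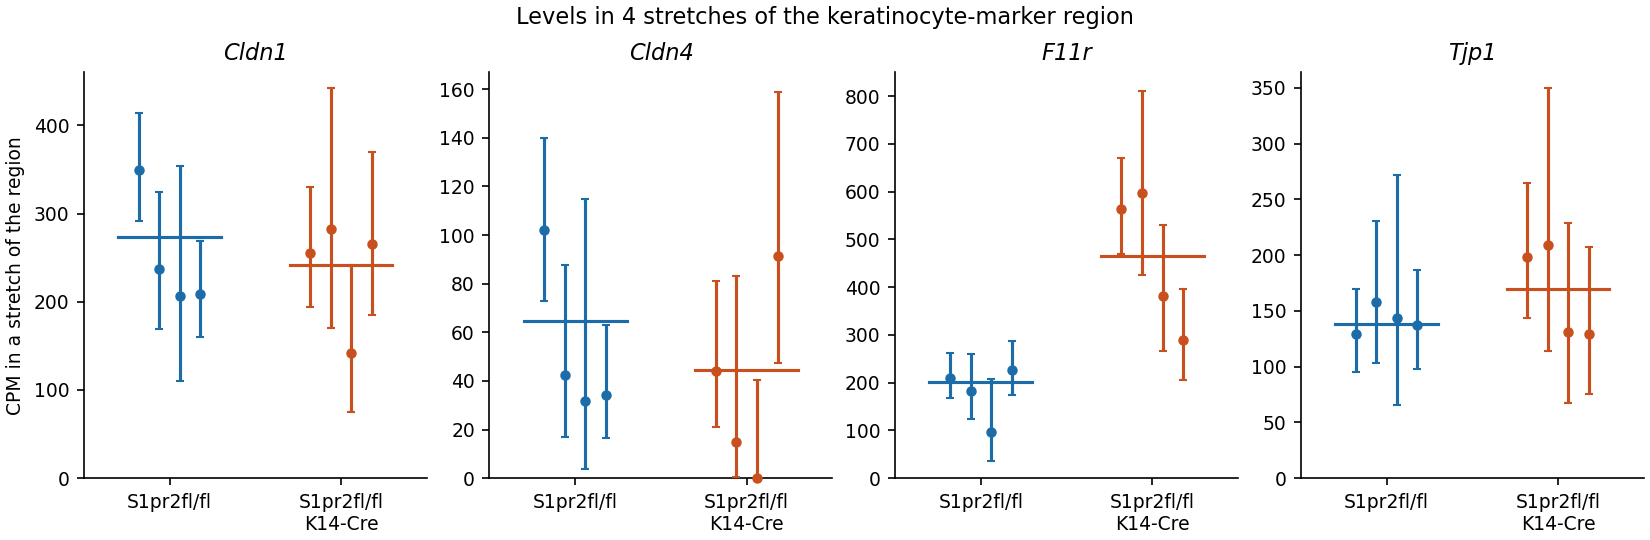
Levels in CPM of 4 genes in 4 stretches of the keratinocyte-marker region of each section, in order along the section, with exact Poisson 95% intervals for counting error; horizontal lines are the level of the whole region. The F11r stretches of S1pr2fl/fl K14-Cre (289 to 596 CPM) lie above those of S1pr2fl/fl (95.7 to 227 CPM), though some of their intervals overlap. The ranges of the other drawn genes overlap, and with TMM scaling those of F11r would too. The share of all genes whose ranges lie apart was not counted.

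A comparison of F11r with Cldn1 within the same spots does not depend on the scaling. This pair was chosen after the levels were seen. F11r made up 42.5 percent (37.8 to 47.4, exact binomial 95% interval) of the F11r and Cldn1 UMIs in the S1pr2fl/fl region and 65.8 percent (60.7 to 70.7) in the S1pr2fl/fl K14-Cre region. In the first depth layer the shares were 42.7 and 68.8 percent. In the second layer they were 41.5 percent (36.9 to 46.3) and 50.8 percent (44.3 to 57.3), with an overlap that does not show equality. In the clusters with Awat1 among their leading genes they were 41.4 percent (37.8 to 45.1) in S1pr2fl/fl and 49.7 percent (41.7 to 57.7) in S1pr2fl/fl K14-Cre. Shares of that size were also found away from the region: the S1pr2fl/fl clusters led by Tnnt1, by Rasgrp2 and by Sftpc had 63.8, 64.1 and 64.4 percent, and the S1pr2fl/fl K14-Cre cluster led by Myoz2 had 67.7 percent (48.6 to 83.3), from 21 UMIs of F11r and 10 of Cldn1.

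Within the region, spots were split at the median by the share of differentiated against basal keratinocyte marker UMIs. In S1pr2fl/fl the differentiated-rich spots had 280.2 CPM of Cldn1 and the basal-rich spots 267 CPM, and F11r stood at 215 and 190.4 CPM. Neither differed beyond counting error. Ocln had 11 of its 12 UMIs in the differentiated-rich spots, a ratio of 11.4 (1.65 to 489) that rests on 1 UMI in the basal-rich spots. With spots of intermediate share left out, 4 UMIs stood against 1, a ratio of 3.94 (0.39 to 194). In S1pr2fl/fl K14-Cre F11r was lower in the differentiated-rich spots, at 362 against 532 CPM (log2 ratio -0.56, -0.97 to -0.15). Tjp1 was lower there as well, at 119 against 203 CPM (-0.77, -1.51 to -0.07). Cldn1 was at 297 against 206 CPM (0.53, -0.00 to 1.06). The median UMIs a spot were 1536 in the differentiated-rich and 2533 in the basal-rich spots of S1pr2fl/fl K14-Cre, and the part of this depth was not tested.

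Likeness over space was described by correlating levels over 40 bins, made of 5 depth layers, 4 stretches and 2 sections, each with 31335 to 856817 UMIs. The bins share libraries and the fall of keratinocyte RNA with depth, so the values describe these sections only. Among the 5 genes, Cldn1 and F11r were most alike (Pearson r = 0.81 over 40 bins), and the other pairs lay between 0.18 and 0.47. Ocln, with 41 UMIs in S1pr2fl/fl and 15 in S1pr2fl/fl K14-Cre, and Cldn4, with 211 and 53, had few UMIs a bin. The part of low counts in the lower values was not tested. Of 2787 genes with at least 200 UMIs in each section, F11r was most like Hr (0.87), the corepressor hairless, Sdc1 (0.85), the heparan sulfate proteoglycan syndecan-1, and Slpi (0.85), a secreted protease inhibitor. Cldn1 was most like Mvk (0.84), mevalonate kinase of sterol synthesis, Hist1h2bb (0.83), a histone gene, and Sdc1 (0.83). Cldn4 was most like Chmp4b (0.72), Esrp1 (0.69), an epithelial splicing regulator, and Slc25a5 (0.68), and Tjp1 most like Cltb, Gjb2, which encodes connexin 26, and Arrdc4 (0.71 for each).

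Of 43 other tight junction genes that were found, 21 could be read in the region of at least 1 section. Among claudins, Cldn23 had 20 and 14 UMIs in the S1pr2fl/fl and the S1pr2fl/fl K14-Cre region, 22.2 and 27.1 CPM. Cldn5, the claudin of endothelium, with 18 UMIs, Cldn8 with 13, Cldn9 with 13 and Cldn6 with 12 could be read in S1pr2fl/fl K14-Cre alone, at 12 to 18 UMIs where the receptor percentile was 11. The 99th percentile of the receptor genes there was 15 UMIs. Cldn6, Cldn8, Cldn9, Cldn23, Jam3 and Pard6b did not exceed it in S1pr2fl/fl K14-Cre. Among membrane proteins, Cxadr stood at 161 and 128 CPM, Lsr, a protein of tricellular corners, at 60 and 96.6 CPM, Crb3, an apical polarity protein, at 83.4 and 44.4 CPM, and Jam3, with 14 UMIs in S1pr2fl/fl K14-Cre, could be read there alone. Among scaffolds, Tjp3, which encodes ZO-3, stood at 65.6 and 48.3 CPM. Patj, a scaffold of the Crumbs complex, stood at 20 and 61.8 CPM, Cgn, which encodes cingulin, at 46.7 CPM in S1pr2fl/fl, and Mpp5, with 13 UMIs there, could be read in S1pr2fl/fl, while the 7 UMIs of Cgn and 4 of Mpp5 in S1pr2fl/fl K14-Cre were too low. Magi3 and Mpdz could be read in S1pr2fl/fl K14-Cre alone, with 16 and 21 UMIs. Among polarity and regulatory genes, Pard3 stood at 119 and 48.3 CPM, Prkci, an atypical protein kinase C, at 75.6 CPM in S1pr2fl/fl with 9 UMIs, too low to read, in S1pr2fl/fl K14-Cre, Pard6b at 36.7 and 27.1 CPM, Sympk at 71.2 and 71.5 CPM and Ybx3, which also acts on RNA throughout the cell, at 1272 and 813 CPM.

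Against the other spots, 4 of the 28 other tight junction genes that reached 30 UMIs stood at least 2-fold higher in the S1pr2fl/fl region (Pard6b, Cgn, Cldn23 and Crb3) and 12 were 2-fold lower, against 4.63 and 42.9 percent of all genes, with a median log2 ratio of -0.76. Of 32 such genes in S1pr2fl/fl K14-Cre, 8 were 2-fold higher and 5 lower, against 14.2 and 20.5 percent of all genes, with a median of -0.02. Both medians were close to those of all genes. Between the sections 13 reached 30 UMIs in the region. Patj alone was 2-fold higher in S1pr2fl/fl K14-Cre, against 23.7 percent of all genes, and Prkci, Cgn and Pard3 were 2-fold lower, against 12.9 percent, the first 2 of them by counts too low to read in S1pr2fl/fl K14-Cre. The median log2 ratio was -0.41, where that of all genes was 0.23. With at least 100 UMIs, 6 genes were left, of which 0 were higher and 1, Pard3, was lower, against 16.6 and 17.3 percent of all genes.

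Desmosome genes, whose products join keratins of neighbouring cells, were at least 2-fold higher in the region for 8 of 13 genes in S1pr2fl/fl, against 4.63 percent of all genes, and 11 of 13 in S1pr2fl/fl K14-Cre, against 14.2 percent. Between the sections 6 of the 11 with at least 30 UMIs were 2-fold lower in S1pr2fl/fl K14-Cre and 1, Dsc2, was higher, against 12.9 and 23.7 percent of all genes, with a median log2 ratio of -1.24. Dsp stood at 4785 and 1911 CPM, Jup at 3623 and 3119 CPM, Pkp1 at 2634 and 1111 CPM and Dsc1 at 1671 and 653 CPM. Of 8 adherens junction genes, 1 was 2-fold lower (Afdn), a share of 12.5 percent against 12.9 percent of all genes, and 0 were higher, against 23.7 percent, with a median of -0.37. Nectin1 stood at 438 and 348 CPM, Nectin4 at 261 and 131 CPM, Ctnna1 at 236 and 259 CPM and Ctnnd1 at 196 and 128 CPM. F11r, at 1.20, lay above each of the 8 adherens junction genes. Of the 11 desmosome genes with at least 30 UMIs, Dsc2 alone lay above F11r, at 2.34. Below that minimum, the desmosome genes Pkp2, at 4.32 (2.30 to 7.45), and Dsg2, at 2.60 (0.21 to 5.91), lay above F11r as well. Pkp2, with 2 UMIs in the S1pr2fl/fl region, was too low to read there. Dsg2, with 2 and 7 UMIs, was too low to read in both regions. The receptor genes together had a log2 ratio of 3.23 between the same regions. Of the 13 other tight junction genes with at least 30 UMIs, Patj lay above F11r, at 1.63 (0.75 to 2.55). Those with fewer UMIs lay on both sides of F11r. Examples were Mpdz at 2.60, too low to read in S1pr2fl/fl, and Mpp5 at -0.90, too low in S1pr2fl/fl K14-Cre.

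**Figure D5:**
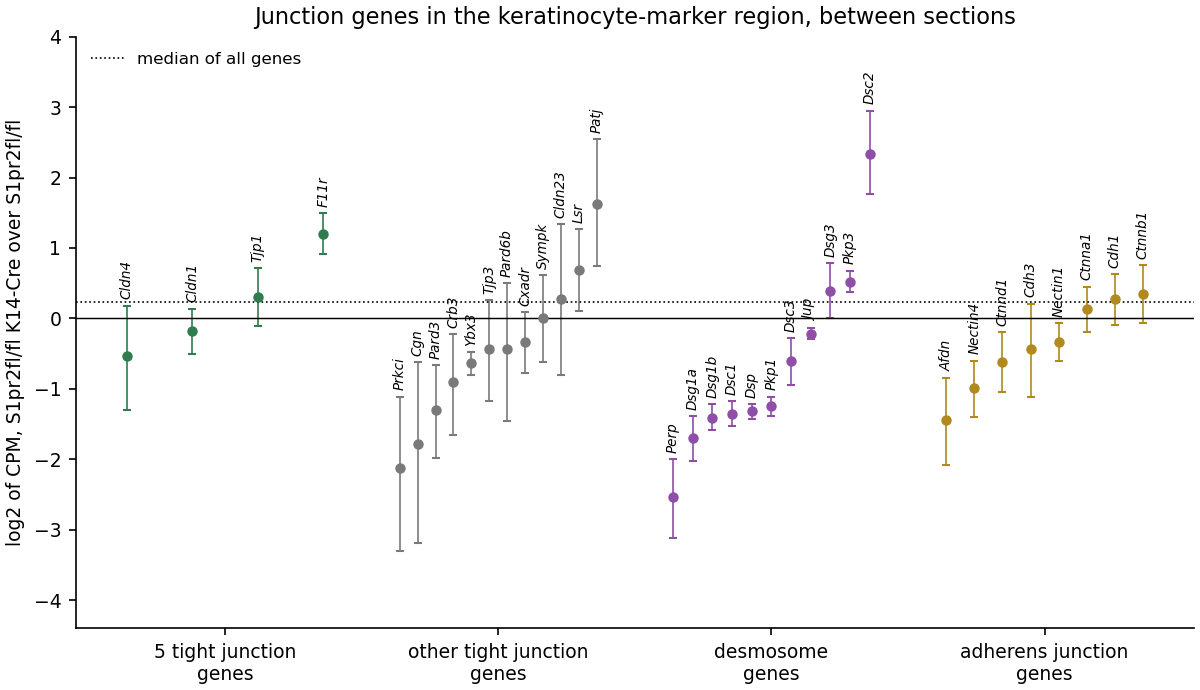
Log2 ratio of CPM in the keratinocyte-marker region, S1pr2fl/fl K14-Cre over S1pr2fl/fl, for genes with at least 30 UMIs over both regions, by list, with 95% intervals for counting error. Ocln, with 15 UMIs, is not drawn. F11r stands at 1.20 and the other drawn members between -0.54 and 0.30, and most desmosome genes lie below 0. TMM scaling would lower every point by 0.89, and scaling per keratinocyte-marker UMI would raise it by 1.01.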

How the data were processed

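Sections of formalin-fixed, paraffin-embedded back skin were read by a spatial probe assay (Visium CytAssist). Values are UMI counts as the authors deposited them, for each gene in each spot. Space Ranger (3.0.0 per the file headers) produced them on mm10, per the submitters' notes. The number of probes per gene is not given in the sources used here. All 2 sections were used and 0 columns of samples were left out. The 5 genes and the gene lists were chosen with earlier results of these data known.

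Spots with at least 50 UMIs were clustered per section (scanpy 1.11.5, Leiden with igraph 0.11.9, resolution 1, 2000 variable genes, 20 components, 15 neighbours), with the junction lists left out. Counts were summed over spots and scaled to CPM. Intervals at 95 percent are exact Poisson for levels, exact binomial (Clopper-Pearson) where a share is given, and from the conditional binomial for a ratio (scipy 1.17.1). They cover counting error only. With 1 section per genotype no test was made and the precision is that of counting. Barcodes name array positions, of which 357 occurred in both sections. Doublets were not called, since a spot can hold several cells. Thinning drew 1000 UMIs per spot and left out 30 and 23 region spots. For calls and medians across all genes 0.5 UMIs were added to each sum. Likeness used log2(CPM + 10). TMM factors came from edgeR 4.0.16 (R 4.3.3). The computation of the intervals was checked on simulated counts with counting error alone. That check does not cover clumping of UMIs within spots.

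Named were the 5 genes, every gene of the wider list readable in at least 1 region, the 3 genes most like each readable member, and up to 4 genes of the desmosome and adherens lists by level in S1pr2fl/fl. Of the wider list, 1 gene is counted but not reported here by name. Dsc2, Pkp2, Dsg2 and Afdn were named after their values were seen. Alternatives changed the clustering, the region, the depth layers, the scaling, the thinning, the receptor background and the count minimum. Doses and ages are those of the labels and methods.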

Additional observations from a re-analysis of the deposited data

How the results depend on the processing

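The sum of the 5 genes in the keratinocyte-marker region, S1pr2fl/fl K14-Cre over S1pr2fl/fl, had a log2 ratio of 0.42, of 0.10 at clustering resolution 0.5, of -0.47 under TMM and of 1.44 per keratinocyte-marker UMI, a scale chosen after seeing the data. By construction the scalings shift all genes alike, and for the clustering the cause was not tested. The sum in the region over the other spots had a log2 ratio of 0.88 in S1pr2fl/fl and 1.48 under TMM, and in S1pr2fl/fl K14-Cre of 1.71, of 1.94 at resolution 0.5 and of 1.49 with the outermost tissue spots as the region. The summed level was 692 CPM in S1pr2fl/fl, 629 with thinning and 1035 under TMM, and 927 CPM in S1pr2fl/fl K14-Cre, 744 at resolution 0.5, 845 with the outermost spots and 748 under TMM. Between differentiated-rich and basal-rich spots of S1pr2fl/fl K14-Cre the sum had -0.32 and, without spots of intermediate share, -0.65. Of the wider list 0 in place of 1 gene were 2-fold higher and 1 in place of 3 lower at a minimum of 100 UMIs, since fewer genes were tested. For these moves the cause was otherwise not tested. F11r kept a ratio above 0 between the sections under each of the 9 alternatives, from 0.31 under TMM to 2.22 per keratinocyte-marker UMI. Of the 5 genes, those too low to read were 0 and 1 also at the 99th percentile of receptor genes.

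No paired analysis was possible because each genotype had 1 section, and leaving out a replicate was not possible for the same reason. Depth limits Ocln, at 3 UMIs in the S1pr2fl/fl K14-Cre region, and Cldn4 there, at 23.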

Other observations

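Outside the keratinocyte-marker region, F11r was also found in the S1pr2fl/fl K14-Cre cluster led by Fa2h and Tbx1, 161 spots, at 170.0 CPM (124 to 228), with Cldn1 at 119.8 CPM (81.4 to 170.0) and Tjp1 at 42.5 CPM (21.2 to 76). In S1pr2fl/fl the cluster led by Sftpc and Igsf3, 208 spots with few UMIs, had F11r at 199 CPM (141 to 273) from 38 UMIs, a level that overlapped that of the keratinocyte-marker region.

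Tjp1 and Cldn1 stood at different distances below their region levels in muscle-gene spots. The S1pr2fl/fl K14-Cre cluster led by Myh2 had Tjp1 at 86.5 CPM (63.3 to 115), against 170.0 CPM in the region, while Cldn1 there stood at 31.9 CPM (18.6 to 51.2), against 242 CPM.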
